A study of Mus musculus with 6 samples.

Results

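The genes examined were 9 genes through which keratinocytes hold on to and move over the wound matrix: the integrin subunits Itga3, Itga5, Itga6, Itgb4 and Itgb6, the laminin-332 chains Lama3 and Lamb3, and the plasminogen activation genes Plau and Plaur. They were named for these roles by a rule that uses no measured value, although earlier results of these data were known when the choice was made. All 9 were found among the 33184 genes of the table, and all 9 were among the 16005 genes kept for testing, which had a mean of at least 0.5 FPKM (fragments for each kilobase of a gene, corrected for library size). The tissue was skin wound of db/db mice, which lack a working leptin receptor and become obese and diabetic. Both groups carried this genotype (age is not given in the sources used here) and the same round wound through epidermis and dermis. The 3 NC libraries came from wounds injected around the edge at dpi1 (days post-injury) with NC-siRNA, a control siRNA, and the 3 libraries labelled SFRP2-siRNA came from wounds injected with siRNA against SFRP2, a secreted Wnt modulator. Wound tissue was taken at dpi4, while the sample titles carry D3. The treated titles are numbered siRNA-1 to siRNA-3 and the study lists 3 SFRP2 siRNA sequences under such names, but whether each library received a different one is not stated. The labels do not say that the libraries came from separate animals, so the p-values below measure only the spread between these samples, which may be technical.

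Keratinocytes at rest are anchored to the basement membrane by hemidesmosomes, in which integrin α6β4 binds laminin-332. At a wound edge they loosen these contacts, lay down new laminin-332, and move over it and over provisional matrix with integrins such as α3β1, α5β1 and αvβ6. Urokinase, bound to its receptor, turns plasminogen into plasmin, which opens a path through the fibrin clot. Several of these genes are not particular to keratinocytes: α5 is also made by fibroblasts, endothelial cells and macrophages, and urokinase and its receptor by leukocytes. The libraries were of whole wound tissue, so fewer cells of a type and less RNA per cell cannot be told apart.

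The libraries rested on 42.9 to 47.1 M reads each (M, the prefix mega). The mRNA of the siRNA target went against its label. Sfrp2 had 11.6, 40.6 and 14.1 FPKM in NC 1, 2 and 3 but 50.6, 54.6 and 55.2 FPKM in those labelled SFRP2-siRNA. Its log2 fold change was 1.45 (SE 0.43, limma adjusted p = 0.518). By immunofluorescence the study reports less SFRP2 protein in siRNA-treated wounds at dpi3, which is another measure. Whether the day differs too is not settled, since these libraries are given as dpi4 while their titles carry D3. Keratinocyte markers were present in every library, with Krt14 between 1571 and 3930 FPKM, and markers of other cell types were present too. Some libraries stood apart. In SFRP2-siRNA 1 the summed level of 8 hair follicle markers was 23.3 FPKM, against 2399 to 5048 FPKM in the other libraries. SFRP2-siRNA 3 had the highest sum of 5 skeletal muscle markers, 11156 FPKM against 2981 to 5910, and the lowest sum of 5 wound-edge keratinocyte markers, 1348 FPKM against 1699 to 3171. NC 1 had the lowest summed level of the basal keratinocyte, macrophage and fibroblast markers.

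None of the 9 genes passed the test between groups. At the study's thresholds (adjusted p under 0.05 and an absolute log2 fold change above 1), limma on log2(FPKM + 1) called 0 of 9 genes, and 0% of all genes tested. The lowest limma adjusted p of any gene tested was 0.518, so the 0 of 9 is not particular to these genes. With DESeq2, a test on counts, the study reports differentially expressed genes in these wounds at the same thresholds, more of them lower than higher. At an unadjusted p under 0.05 it also called 0 of 9, where the background was 9.58% of all genes. The groups overlapped for each of the 9 genes, where the background of genes without overlap was 17.8%. The mean was higher in the libraries labelled SFRP2-siRNA for 8 of 9 genes, and 71.8% of all genes tested were higher there. The median log2 fold change was 0.41 over the 9 genes and 0.13 over all genes tested. Without NC 1 the former was 0.17 and the latter 0.066. The background depended on the scaling: of all genes at an unadjusted p under 0.05, 1075 were higher and 458 lower as deposited, but 422 higher and 770 lower after median-of-ratios scaling, with a median over all genes of 0.00034 and over the 9 genes of 0.27. Adjusted p-values from limma ran from 0.529 to 0.920, and the level varied by more than 2-fold over the 6 libraries for 7 of 9 genes.

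**Figure D1:**
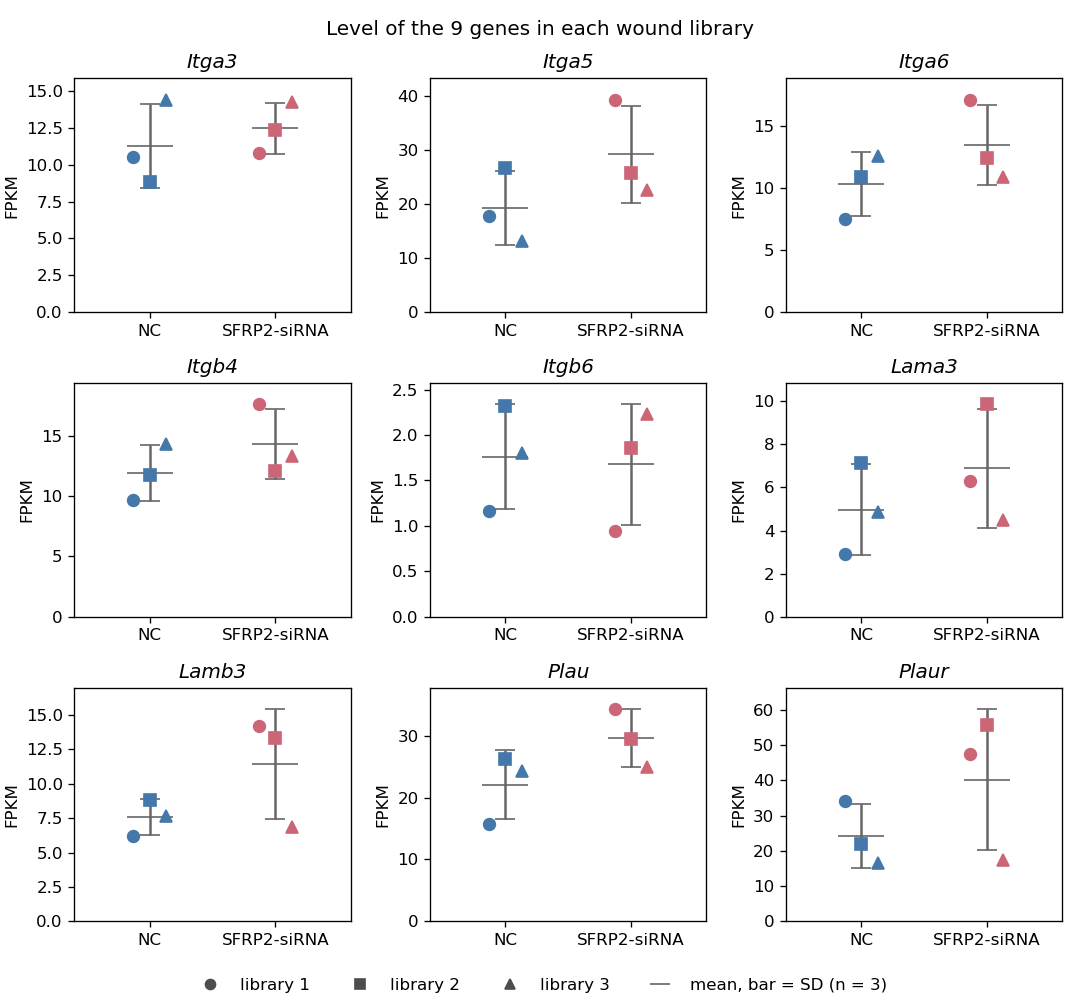
Level of each gene in FPKM (vertical axes, from 0) in the 3 NC and the 3 SFRP2-siRNA libraries, with the group mean and SD; symbol shapes number the libraries within a group and pair nothing. The groups overlap in every panel, and SFRP2-siRNA 1 is the highest library for 5 of the 9 genes.

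Itga6 and Itgb4 encode the 2 subunits of the hemidesmosome integrin α6β4. Itga6 (ENSMUSG00000027111) had 7.52, 10.9 and 12.5 FPKM in NC 1, 2 and 3. In SFRP2-siRNA 1, 2 and 3 it had 17.1, 12.4 and 10.9 FPKM. One library, SFRP2-siRNA 1, lay above all NC libraries, and the others lay among them. NC averaged 10.3 ± 2.55 and SFRP2-siRNA 13.5 ± 3.23 FPKM (SD, n = 3 each), for a log2 fold change of 0.36 (95% interval −0.19 to 0.91, limma adjusted p = 0.561), and of 0.17 without NC 1 or 0.19 without SFRP2-siRNA 1. Itgb4 (ENSMUSG00000020758) had 9.72, 11.8 and 14.3 FPKM in NC and 17.6, 12.1 and 13.3 FPKM in SFRP2-siRNA libraries. Again SFRP2-siRNA 1 alone lay above the NC libraries, and NC 1 was lowest. Its means were 11.9 ± 2.30 and 14.3 ± 2.90 FPKM (SD, n = 3 each), with a log2 fold change of 0.25 (95% interval −0.22 to 0.71, limma adjusted p = 0.604), which was 0.12 without NC 1 and 0.098 without SFRP2-siRNA 1. The partners kept close to each other: the ratio of Itga6 to Itgb4 FPKM stayed between 0.773 and 1.03 in the 6 libraries, and the groups overlapped (exact permutation p = 0.4). Over the 6 libraries their log2 levels had a Pearson r of 0.94 and a Spearman rho of 0.94, as a description over n = 6 libraries that share group and tissue makeup.

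Itga3 encodes the α3 subunit, which pairs with β1 and binds laminin-332 in moving keratinocytes. Itga3 (ENSMUSG00000001507) was the steadiest of the 9 genes. It had 10.6, 8.81 and 14.4 FPKM in NC libraries and 10.8, 12.4 and 14.3 FPKM in SFRP2-siRNA libraries, so that the highest and the lowest library were both NC. The log2 fold change was 0.15 (95% interval −0.32 to 0.63, limma adjusted p = 0.724), close to the median of all genes, with 0.0058 without NC 2 and 0.33 without NC 3. Its level had an r of −0.48 with that of Itga5 over the 6 libraries.

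Itga5 encodes the α5 subunit of the fibronectin receptor α5β1. Itga5 (ENSMUSG00000000555) had 17.8, 26.7 and 13.2 FPKM in NC 1, 2 and 3 and 39.3, 25.7 and 22.5 FPKM in SFRP2-siRNA 1, 2 and 3. SFRP2-siRNA 1 was the highest library and NC 2 lay above the other two SFRP2-siRNA libraries. NC averaged 19.2 ± 6.85 and SFRP2-siRNA 29.2 ± 8.91 FPKM (SD, n = 3 each). With a log2 fold change of 0.59 (95% interval −0.13 to 1.31), it had the smallest limma p of the 9 genes, 0.0926 before and 0.529 after adjustment. Without NC 2 the log2 fold change was 0.84 (limma adjusted p = 0.346), and without SFRP2-siRNA 1 it was 0.36. Its level moved with macrophage markers (r = 0.93, rho = 0.77, n = 6 libraries), which summed to 964 to 1568 FPKM in NC and 1748 to 2347 FPKM in SFRP2-siRNA libraries. All 8 macrophage markers were higher in the SFRP2-siRNA libraries, Lyz2 and C1qb among them. Itga5 moved with the endothelial markers (r = 0.82, rho = 0.83) and the fibroblast markers (r = 0.81, rho = 0.77) too. The part of any of these cell types in the result was not tested.

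Itgb6 encodes the β6 subunit, which pairs with αv, is found in epithelia and releases active TGF-β from its latent form. Itgb6 (ENSMUSG00000026971) was the lowest of the 9 genes and the only one with a lower mean in the SFRP2-siRNA libraries. It had 1.16, 2.32 and 1.80 FPKM in NC and 0.944, 1.85 and 2.23 FPKM in SFRP2-siRNA libraries, on 288 to 772 reads. SFRP2-siRNA 1, the highest library for 5 of the other genes, was the lowest for Itgb6. The log2 fold change was −0.06 (95% interval −0.63 to 0.52, limma adjusted p = 0.920), and its sign turned without NC 2 (0.087) or without SFRP2-siRNA 1 (0.16).

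Lama3 and Lamb3 encode the α3 and β3 chains of laminin-332, the adhesive laminin of the epidermal basement membrane. Lama3 (ENSMUSG00000024421) had 2.91, 7.14 and 4.84 FPKM in NC 1, 2 and 3 and 6.32, 9.87 and 4.47 FPKM in SFRP2-siRNA 1, 2 and 3. SFRP2-siRNA 2 was highest and NC 1 lowest, and SFRP2-siRNA 3 lay below 2 NC libraries. NC averaged 4.97 ± 2.12 and SFRP2-siRNA 6.88 ± 2.75 FPKM (SD, n = 3 each), with a log2 fold change of 0.41 (95% interval −0.40 to 1.21, limma adjusted p = 0.611). Without NC 1 this was 0.14. Lamb3 (ENSMUSG00000026639) had 6.19, 8.81 and 7.66 FPKM in NC and 14.2, 13.3 and 6.88 FPKM in SFRP2-siRNA libraries. Here SFRP2-siRNA 1 and 2 both lay above all NC libraries, while SFRP2-siRNA 3 lay among them. The log2 fold change was 0.50 (95% interval −0.16 to 1.15, limma adjusted p = 0.536), and 0.80 without SFRP2-siRNA 3 (adjusted p = 0.446). In that library the wound-edge keratinocyte and neutrophil markers were lowest, and their part in the result was not tested. Lamb3 was above Lama3 in each of the 6 libraries, by 1.23- to 2.24-fold per length, and the ratio overlapped between groups (exact permutation p = 0.8). The 2 chains had an r of 0.82 and a rho of 0.83 over the 6 libraries.

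Plau encodes urokinase, the protease that activates plasminogen. Plau (ENSMUSG00000021822) had 15.7, 26.3 and 24.3 FPKM in NC 1, 2 and 3 and 34.4, 29.5 and 25.0 FPKM in SFRP2-siRNA 1, 2 and 3. Only NC 2 lay within the range of the SFRP2-siRNA libraries, which made Plau the gene with the least overlap (exact permutation p = 0.2, against a smallest possible 0.1). NC averaged 22.1 ± 5.64 and SFRP2-siRNA 29.6 ± 4.70 FPKM (SD, n = 3 each), for a log2 fold change of 0.43 (95% interval −0.11 to 0.97, limma adjusted p = 0.536), and 0.21 without NC 1. The level of Plau moved with the macrophage markers (r = 0.86, rho = 0.94, n = 6 libraries) and the fibroblast markers (r = 0.86, rho = 0.94). The 7 fibroblast markers summed to 857 to 1870 FPKM in NC and 2075 to 2167 FPKM in SFRP2-siRNA libraries, and the part of either in the result was not tested.

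Plaur encodes the urokinase receptor, which is abundant on neutrophils and monocytes and appears on keratinocytes at the wound edge. Plaur (ENSMUSG00000046223) had 34.1, 21.9 and 16.6 FPKM in NC 1, 2 and 3 and 47.5, 55.6 and 17.5 FPKM in SFRP2-siRNA 1, 2 and 3. SFRP2-siRNA 1 and 2 lay above all NC libraries, and SFRP2-siRNA 3 lay next to the lowest NC library. This was the largest difference in log2 level among the 9 genes and also the largest spread, with means of 24.2 ± 8.97 and 40.2 ± 20.1 FPKM (SD, n = 3 each) and a log2 fold change of 0.61 (95% interval −0.49 to 1.72, limma adjusted p = 0.591). Without SFRP2-siRNA 3 it was 1.12 (adjusted p = 0.468), and without SFRP2-siRNA 2 it was 0.31. The level of Plaur followed the neutrophil markers (r = 0.95, rho = 0.89, n = 6 libraries). These 7 markers summed to 1143 to 1765 FPKM in NC and to 4613, 5533 and 988 FPKM in SFRP2-siRNA 1, 2 and 3, and their part in the result was not tested. The study reports that SFRP2 siRNA left the ratio of neutrophils at dpi4 unchanged, from Ly6G staining and a heat map of neutrophil genes. A sum of marker levels is another measure than a ratio of cells. The ratio of Plaur to Plau ran from 0.681 to 2.17 and was not ordered by group (exact permutation p = 0.9).

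Promoter windows of 5 of the 9 genes (Itga3, Itga5, Itgb6, Lamb3 and Plaur) were searched, from RefSeq on GRCm38.p6. The remaining members of the 9 were not searched. The 250 bases before the start of Plaur and Itga5 are shown because these genes had the largest fold changes and their windows held no annotated exon. Capitals mark 2 motifs searched on both strands: TGACTCA, a binding motif of AP-1, which immediate early genes such as the Fos and Jun families encode, and GGGCGG, the GC box of Sp factors. The Plaur window is chr7:24462233-24462482 on the plus strand and the Itga5 window chr15:103366792-103367041 on the minus strand, both written 5′ to 3′.
Plaur: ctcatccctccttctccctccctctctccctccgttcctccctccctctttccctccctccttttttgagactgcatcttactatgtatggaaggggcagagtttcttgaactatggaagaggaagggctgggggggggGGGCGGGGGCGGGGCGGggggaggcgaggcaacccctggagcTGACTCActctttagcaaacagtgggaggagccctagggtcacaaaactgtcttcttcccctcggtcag
Itga5: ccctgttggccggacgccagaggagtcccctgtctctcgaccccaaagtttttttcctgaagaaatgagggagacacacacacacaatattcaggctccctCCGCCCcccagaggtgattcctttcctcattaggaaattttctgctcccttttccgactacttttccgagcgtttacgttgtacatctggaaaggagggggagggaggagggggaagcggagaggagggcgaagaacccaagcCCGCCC
The Plaur window held 1 AP-1 motif, whose first base lay 69 bases before the start, and 3 adjoining or overlapping GC boxes at 111, 105 and 100 bases. Itga5 held GC boxes at 149 and 6 bases, both read on the other strand, and no AP-1 motif. Of all 32851 windows, 4.46% held the AP-1 motif and 32.7% a GC box. In the windows of the other 4 searched genes TGACTCA was not found. A match describes these letters only and is no evidence of binding.

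Ordered by mean level per length over the 6 libraries, the genes ran from Plaur (32.2 FPKM), Plau (25.9) and Itga5 (24.2) through Itgb4 (13.1), Itga6 (11.9) and Itga3 (11.9) to Lamb3 (9.51), Lama3 (5.92) and Itgb6 (1.72). The first 3 could not be put in order, since Plaur exceeded Plau in 3 of 6 libraries and Plau exceeded Itga5 in 3 of 6. Itga6 and Itga3 likewise changed places, with Itga6 higher in 3 of 6. Lamb3 over Lama3 and Lama3 over Itgb6 held in 6 of 6 libraries.

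**Figure D2:**
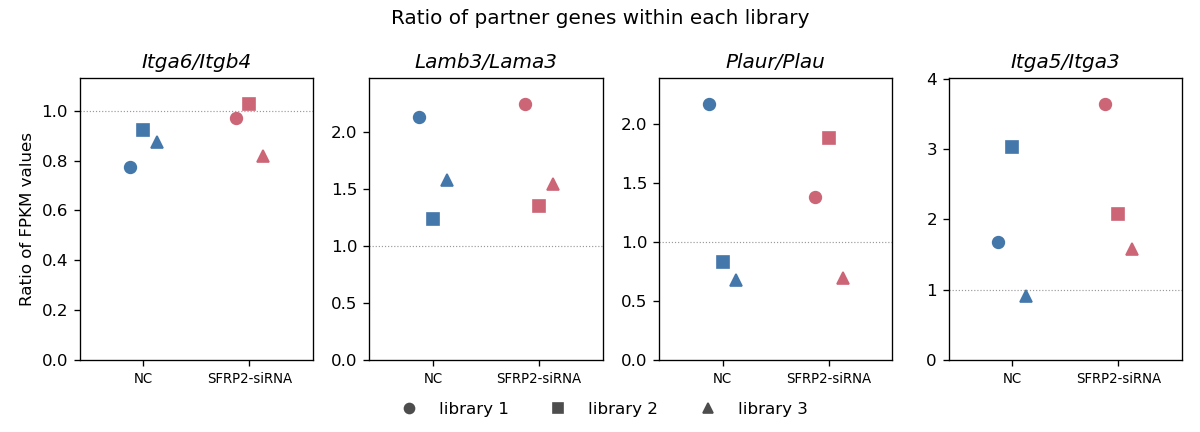
Ratio of FPKM values (vertical axes, from 0) of 4 pairs of genes in each NC and SFRP2-siRNA library, with a dotted line at a ratio of 1. The ratio of Itga6 to Itgb4 stays between 0.773 and 1.03, while that of Itga5 to Itga3 runs from 0.918 to 3.64.

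Among the 36 pairs of the 9 genes, the Pearson r over the 6 libraries was above 0 in 27 and above 0.8 in 6, with a median of 0.30. The 6 close pairs joined Itga6, Itgb4, Plau, Lamb3 and Lama3 only, such as Itga6 with Plau (r = 0.94, rho = 0.60) and Lamb3 with Plau (r = 0.85, rho = 0.94). Itgb6 and Plaur were the least alike (r = −0.59). Among all genes tested, Fosl2 was 1 of the 2 nearest to Lama3 in its level over the libraries (r = 0.98, rho = 1, n = 6). Out of 16005 genes over 6 libraries, each of the 9 genes had so close a neighbour, such as Rpl13a for Itga3 (r = 0.996). These likenesses are a description only, and no link between the genes was tested. For Itga5 the nearest genes were Bcat1 and Cd93, for Itga6 Slc31a2 and Trmt11, for Lamb3 H2-Eb1 and Mir674, and for Plau Ust and Rab31.

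**Figure D3:**
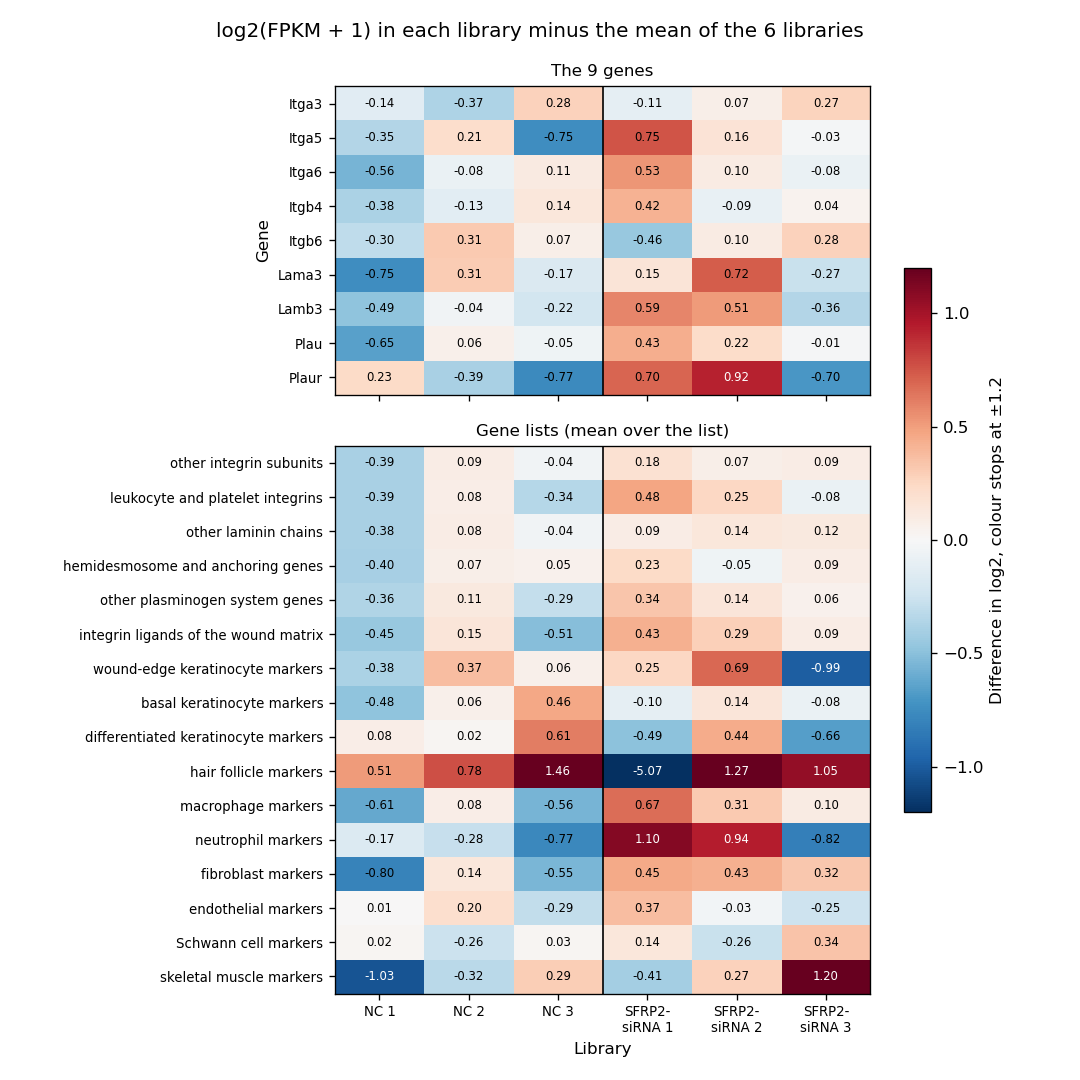
Each cell is log2(FPKM + 1) in a library minus the mean of the 6 libraries, for the 9 genes (upper panel) and for the mean of each marker or pathway list (lower panel), with a line between the NC and the SFRP2-siRNA libraries. NC 1 is low for 8 of the 9 genes, and the Plaur row follows the neutrophil row, with 0.92 and 0.94 in SFRP2-siRNA 2 and −0.70 and −0.82 in SFRP2-siRNA 3.

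Wound biopsies can hold different amounts of epidermis, so the genes were also read against 8 basal keratinocyte markers of the same library. Of these markers 3 were higher and 5 lower in the SFRP2-siRNA libraries, with a median log2 fold change of −0.05 and none past the test. Relative to them, 2 of 9 genes had groups that did not overlap, against 5.48% of all genes tested. Relative Itga6 was higher by 0.39 on the log2 scale and relative Plau by 0.46, each with an exact permutation p of 0.1, the smallest possible, which became 0.45 after Benjamini-Hochberg adjustment over the 9 genes. Over the 6 libraries Plau had an r of 0.49 and a rho of 0.09 with these markers, and Itga6 an r of 0.51 and a rho of 0.37. Urokinase is also made by leukocytes, whose amount these markers do not measure. The count rested on the markers chosen. Relative to 6 differentiated keratinocyte markers it was 1 of 9, where 4.19% of all genes did not overlap. This gene was Lamb3, higher by 0.97 on the log2 scale (exact permutation p = 0.1, and 0.3 after adjustment over the 9 genes). These 6 markers were themselves all lower in the SFRP2-siRNA libraries, with a median log2 fold change of −0.45, while Lamb3 alone differed by 0.50. Relative to Krt5 and Krt14 alone the count was 0 of 9 (2.18% of all genes). Relative to the basal markers without SFRP2-siRNA 3 it was 5 of 9 (9.19% of all genes).

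The other genes of these pathways were not past the adjusted test either. Of 11 other integrin subunits, 9 were higher and 2 lower in the SFRP2-siRNA libraries, with a median log2 fold change of 0.29. Itgb1, the β partner of α3 and α5, had 59.7, 101 and 82.1 FPKM in NC and 128, 102 and 96.5 FPKM in SFRP2-siRNA libraries, a log2 fold change of 0.45 (limma adjusted p = 0.535). Among 8 other laminin chains 7 were higher, with a median of 0.30, and among 8 hemidesmosome and anchoring genes 6 were higher, with a median of 0.21. All 9 other plasminogen system genes kept were higher, with a median of 0.49. They included Serpinb2, an inhibitor of urokinase, with 26.0, 31.9 and 21.2 FPKM in NC and 42.3, 55.0 and 39.5 FPKM in SFRP2-siRNA libraries. Its groups did not overlap and its log2 fold change was 0.77 (SE 0.20). The limma adjusted p was 0.518, the lowest that any gene tested reached. Plat, the tissue plasminogen activator, had a log2 fold change of 0.59 (limma adjusted p = 0.518). The 10 leukocyte and platelet integrins had a median of 0.37, and Itgam, which marks myeloid cells, had 0.96 (limma adjusted p = 0.518). All 7 fibroblast markers were also higher in the SFRP2-siRNA libraries, with a median of 0.83. Wound-edge keratinocyte markers were 3 higher and 2 lower, with Krt6b at 191, 364 and 261 FPKM in NC and 528, 645 and 135 FPKM in SFRP2-siRNA libraries. Krt17, which had the smallest p of these markers, had 767, 1434 and 1625 FPKM in NC and 423, 928 and 833 FPKM in SFRP2-siRNA libraries (log2 fold change −0.82, limma adjusted p = 0.535). Krt6a had a log2 fold change of −0.21 (limma adjusted p = 0.871). The 6 differentiated keratinocyte markers were lower, with a median of −0.45.

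**Figure D4:**
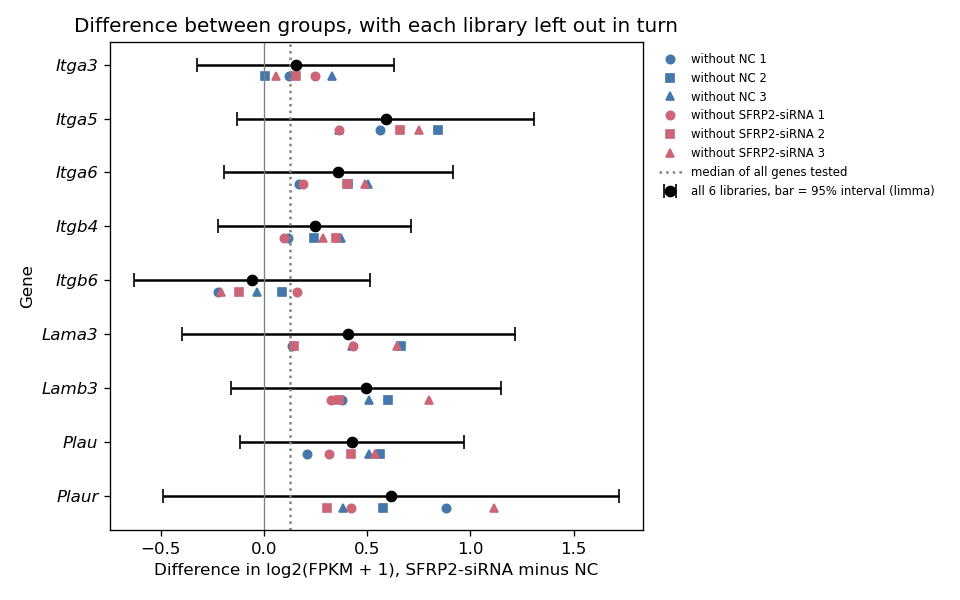
Difference between groups in log2(FPKM + 1), SFRP2-siRNA minus NC (horizontal axis), for each gene: black points and bars give the estimate and 95% interval from all 6 libraries, coloured symbols the estimate with 1 library left out, and the dotted line the median of all genes tested. Every interval spans 0, and Plaur moves most, from 0.31 to 1.12.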

How the data were processed

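Wound RNA was sequenced as paired-end mRNA libraries, and the authors deposited 1 table of FPKM values for 33184 Ensembl gene IDs. The submitters' processing notes name HISAT2, featureCounts and Subread, without versions. The genome build and annotation are not given in the sources used here. Symbols came from a gene name table that matched 32582 IDs. Low values were whole multiples of 1 read: with GENCODE vM21 exon lengths 98.3% of genes gave whole reads (tolerance 0.05), which gave the depths.

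The study's own test was not run, since it needs counts and the deposited values are FPKM. Reads recovered from these values were not used for the main fit. The study's thresholds were used with limma 3.58.1 in R 4.3.3 (lmFit and eBayes with an intensity trend) on log2(FPKM + 1), two-sided, 3 against 3 libraries, adjusted by Benjamini-Hochberg across all 16005 genes. This scale understates the change of low genes. For single values an exact permutation test was used (two-sided, with 0.1 as its smallest p). The script was tested on simulated data. No 2 libraries of a group were duplicates.

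The 9 genes and all lists were chosen with earlier results of these data known. Named genes were the 9, Sfrp2, the 2 with the smallest p in each list, for cell type lists also the first 2, and the 2 most correlated with each of the 9. Not all of these are printed, and 1 item is not reported here. Alternatives were another pseudocount (0.1), no filter or a filter at 2 FPKM, 4 other scalings, no trend, sample weights, a replicate block, and each library left out. Voom on the recovered reads was added after the data were seen.

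Same-numbered libraries of the 2 groups deviated together with correlations of −0.05, −0.15 and 0.38, so the numbers were not taken to pair them.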

Additional observations from a re-analysis of the deposited data

How the results depend on the processing

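Under 17 alternatives, 0 of the 9 genes passed the adjusted threshold, and the lowest limma adjusted p of any of them was 0.330. Of 152 refitted fold changes 150 kept their direction, and Itgb6 turned to 0.087 without NC 2 and 0.16 without SFRP2-siRNA 1, in a range of −0.22 to 0.16. The count at an unadjusted p under 0.05 was 0, became 1 with estimated sample weights (Plaur; 14.0% of all genes), and ran from 0 to 2 with 1 library left out. It was 1 without NC 2 (Itga5; 12.3% of all genes) and 2 without SFRP2-siRNA 3 (Lamb3 and Plaur; 8.86%). The count of genes whose groups did not overlap ran from 0 to 3. It was 2 without NC 2, when 32.7% of all genes did not overlap, 3 without NC 3 (34.6%) and 3 without SFRP2-siRNA 3 (27.9%). The median log2 fold change of the 9 genes ran from 0.17 without NC 1 to 0.56 without NC 2. Scalings moved the median of all genes from 0.00034 to 0.20 and that of the 9 genes from 0.27 to 0.48. The count relative to basal keratinocyte markers was 1 with the differentiated list (4.19% of all genes) and 0 with Krt5 and Krt14 (2.18%). With 1 library left out it was 5 without SFRP2-siRNA 3 (9.19%). It was 3 without NC 1 (37.4%), NC 2 (9.58%) or SFRP2-siRNA 2 (18.7%), and 2 without NC 3 (10.5%) or SFRP2-siRNA 1 (9.87%). Relative Itgb6 turned to 0.42 with the differentiated list, 0.056 without NC 1, 0.094 without NC 2 and 0.14 without SFRP2-siRNA 1 (−0.23 to 0.14 with each library left out), and relative Itga3 to −0.026 with Krt5 and Krt14. The cause of these changes was not tested. A filter at 2 FPKM dropped Itgb6.

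With the replicate number as a block, 0 of 9 genes passed and 0 were at an unadjusted p under 0.05, with a median of 0.41. The block raised the share of all genes at that p from 9.58% to 12.1%. As the numbers did not pair the libraries, nothing more was read from it. With 3 libraries a group, or with 1 left out, no exact permutation p could go below 0.1.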
